A study of Mus musculus with 3 samples.

Results

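Islet resident macrophages are the leukocytes that live inside the islets of Langerhans, the hormone-producing clusters of the pancreas. They were taken here as kept barcodes with at least 2 of the complement genes C1qa, C1qb and C1qc, at least 1 of the macrophage genes Adgre1, Csf1r and Cd68, and less than 20% of their unique molecular identifiers (UMIs, counted transcript molecules) from the 5 islet hormone genes. The rule found 189 cells among 7490 kept barcodes, with 15 in mouse 1, 48 in mouse 2 and 126 in mouse 3. The cells come from droplet-based single-cell sequencing of transcript 3′ ends in islets of 3 non-diabetic female NOD-SCID mice aged 10 to 11 weeks, with 1 library per mouse and no treatment named. All mice belong to this 1 group, so every comparison lies between cell classes of the same mice. The islets were released with collagenase and dissociated with an enzyme before capture. The labels name these cells by tissue only, so that residence in the islet cannot be checked from the counts.

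Tissue macrophages engulf dying cells, secrete the C1q proteins that start the classical complement pathway, and depend on signals through the receptor encoded by Csf1r. Those of the islet lie against blood vessels and beta cells, take up insulin granule material, and in NOD mice present its peptides on MHC class II molecules to CD4 T cells. The SCID mutation, in the DNA repair gene Prkdc, blocks rearrangement of antigen receptor genes, so mice that carry it lack mature T and B cells. The macrophages described here therefore come from islets of the diabetes-prone strain background in a host without its usual lymphocytes.

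The 3 libraries held 32389170, 48076507 and 57849496 UMIs over 6005, 4444 and 5713 barcodes. A macrophage of mice 1, 2 and 3 held 11456, 7149 and 7696 UMIs from 2941, 1842.5 and 2085 genes at the median, and the summed UMIs were 195108, 368626 and 1052240. The libraries of mice 1 and 2 shared 148 barcodes, against 9 for mice 1 and 3 and 13 for mice 2 and 3. Over the 148 shared barcodes the UMI count in library 1 was a nearly fixed fraction of that in library 2, with a median ratio of 0.606 and 10th and 90th percentiles of 0.562 and 0.662. For the other pairs these percentiles ran from 0.041 to 2.15 and from 0.078 to 3.41. Among the macrophages, 1 barcode was a member in both libraries, with 1019 UMIs in mouse 1 and 1580 in mouse 2, and with C1qa at 24 and 36 UMIs and Cd74 at 25 and 51. The other shared barcodes among the members were 2 in mouse 2 whose partner in mouse 1 was no member, and 1 barcode in mouse 3 that library 2 also holds. Whether these are cells counted under 2 library names was not tested, and results are given with and without them below.

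Macrophages made up 1.31%, 1.77% and 3.46% of kept cells in mice 1, 2 and 3, a mean of 2.18% ± 1.13 (SD, n = 3). The exact binomial 95% intervals were 0.735% to 2.15%, 1.31% to 2.35% and 2.89% to 4.11%, and they cover counting error only. The interval of mouse 3 lay above both others, while those of mice 1 and 2 overlapped. Without cells whose barcode another library holds, the mean share was 2.13%.

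C1q transcripts, which chose the cells, took 1.17%, 1.29% and 1.45% of all macrophage UMIs in mice 1, 2 and 3. C1qa (ENSMUSG00000036887, chromosome 4, 136895917 to 136898803, genome build GRCm38/mm10), which encodes the A chain of C1q, stood at 5274, 5959.97 and 6724 CPM (counts of a gene relative to all UMIs of the class), C1qb (ENSMUSG00000036905, chromosome 4, 136880129 to 136886187) at 3941, 4579 and 4881 and C1qc (ENSMUSG00000036896, chromosome 4, 136889804 to 136893065) at 2439.7, 2352 and 2881. The 3 genes neighbour each other and encode the chains of 1 protein. All 3 were detected in 176 of the 189 cells, and 13 cells held 2 of them. The second set of rule genes was detected less often per cell, with Csf1r, the colony-stimulating factor receptor, in 165 cells, Cd68, a lysosomal glycoprotein, in 162, Adgre1, the F4/80 antigen, in 128, and all 3 together in 111. These values describe the choice of cells and carry no test. Insulin-rich cells were kept cells with at least 20% insulin UMIs and at most 1 C1q gene. They held C1q at 0.00178% of UMIs, with median depths of 4226, 6359 and 30613 UMIs. Their limit on C1q genes holds this value down, so it is no full measure of free C1q RNA in the droplets.

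The cells at the edge of the rule were few. Just inside, the 13 cells with 2 C1q genes had a median of 3 C1q UMIs, against 110.0 in the 176 cells with all 3, and 5 members had 15% to 20% of their UMIs from hormone genes. Just outside, 26 cells met the other conditions with 1 C1q gene, 25 lacked a gene of the second set and 8 exceeded the hormone limit, with medians of 1, 7 and 19 C1q UMIs. A group of 14 members, 12 of them in mouse 3, had less than 0.2% C1q UMIs. In mouse 3 these 12 held Cd74 at 29729 CPM and the cystatin gene Cst3 at 26682 CPM, beside 40053 and 23495 CPM in the other 114 members. Apoe, the gene for the lipid carrier apolipoprotein E, was at 154 CPM in the 12 and 16593 CPM in the 114, and the dendritic cell receptor gene Flt3 had a UMI in 8 of 12 and 1 of 114. Among the 12, Cd209a, another dendritic cell gene, had a UMI in 3, Apoe in 7 and Ms4a7 in 3, so that genes of both cell types were found in the group. They were kept as members. Leaving all 14 out gave a mean share of 2.01%.

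**Figure D1:**
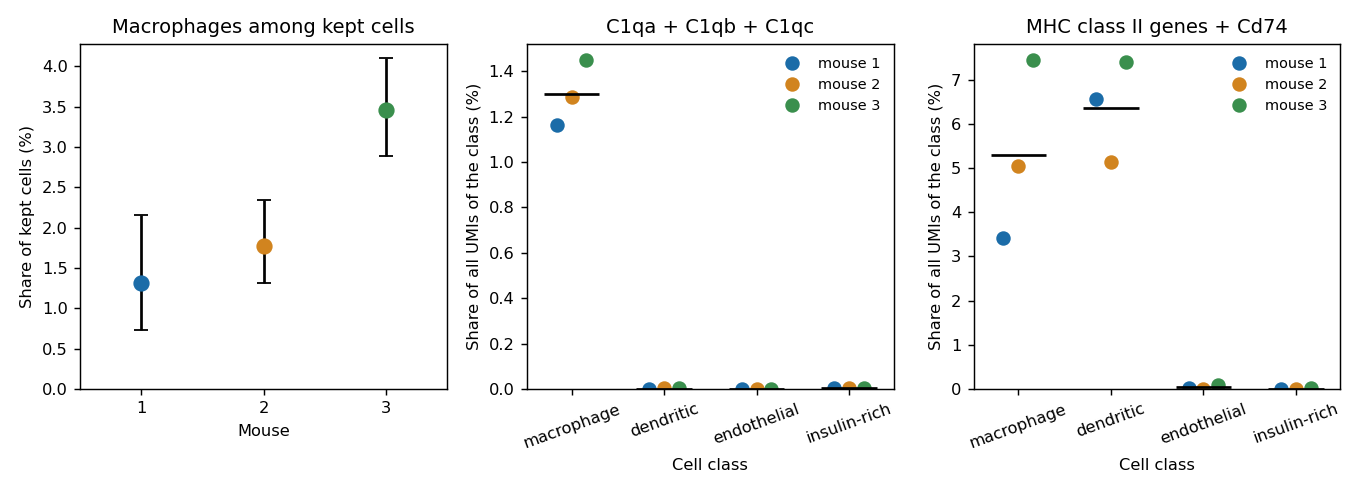
Left, the share of kept cells that met the macrophage rule in each mouse, with exact binomial 95% intervals for counting error. Middle and right, the percentage of all UMIs of each cell class that came from the 3 C1q genes and from the MHC class II genes with Cd74, with 1 point per mouse and a line at the mean. C1q was the basis of the choice and separates macrophages by construction, while class II shares of macrophages (3.43% to 7.44%) overlapped those of dendritic-like cells (5.14% to 7.41%).

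The stretch just before the transcription start is shown for C1qb and C1qc, since these neighbours were detected together in most members, and for Cx3cr1, H2-Aa and H2-Eb1, whose transcripts recur in the results below. Sequences are the 150 bases before the start in RefSeq's GRCm38.p6 annotation, read 5′ to 3′ on the strand of the gene. Capitals mark 2 motifs that were searched on both strands, GAGGAA, the core bound by the myeloid factor PU.1, and GATTGG, the Y box of MHC class II promoters (CCAATC on the other strand).
C1qb, chr4:136886201-136886350, minus strand: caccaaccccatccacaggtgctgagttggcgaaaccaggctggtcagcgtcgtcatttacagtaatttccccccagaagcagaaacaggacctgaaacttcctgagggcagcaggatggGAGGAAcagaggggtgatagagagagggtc
C1qc, chr4:136892915-136893064, minus strand: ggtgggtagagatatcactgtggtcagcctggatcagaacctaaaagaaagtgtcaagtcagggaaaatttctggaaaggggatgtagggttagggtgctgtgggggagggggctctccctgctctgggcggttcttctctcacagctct
Cx3cr1, chr9:120068297-120068446, minus strand: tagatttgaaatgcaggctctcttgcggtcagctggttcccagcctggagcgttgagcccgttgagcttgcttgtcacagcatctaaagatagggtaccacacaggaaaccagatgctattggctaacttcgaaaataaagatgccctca
H2-Aa, chr17:34287824-34287973, minus strand: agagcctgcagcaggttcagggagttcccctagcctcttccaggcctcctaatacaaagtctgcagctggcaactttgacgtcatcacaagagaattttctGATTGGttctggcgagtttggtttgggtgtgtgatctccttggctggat
H2-Eb1, chr17:34305717-34305866, plus strand: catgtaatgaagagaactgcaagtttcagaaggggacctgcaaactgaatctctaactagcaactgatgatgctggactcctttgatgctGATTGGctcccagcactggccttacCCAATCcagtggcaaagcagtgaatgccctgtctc
GAGGAA occurred 1 time in C1qb, and GATTGG occurred 1 time in H2-Aa and 2 times in H2-Eb1. Of all 32851 promoters in the table, 14.5% held GAGGAA and 10.9% GATTGG in a window of the same length. A match describes letters and is no evidence of binding.

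To see what else these cells transcribed, macrophage UMIs were summed per mouse and compared with the sums of 403 endothelial cells of the same islets (55, 89 and 259), a non-immune class with cells in every mouse. Endothelial cells were chosen by 6 vascular genes, and the rule genes, the genes of the other gates and the hormones were left out of the calls. Of 6701 genes tested with edgeR's quasi-likelihood test and the mouse as a block, 22.1% were higher in macrophages at an adjusted p under 0.05 (1481 genes) and 25.8% were lower (1727), and the median log2 fold change over all tested genes was -0.07. Scaling by library totals in place of TMM moved that median to -0.60 and the calls to 888 higher and 2858 lower, so that 23.7% of called genes in place of 46.2% were higher. Without mouse 3, which holds most of the cells, 966 were higher and 1105 lower. Leaving out the cells with a shared barcode gave 1473 and 1718. A listed gene that is low in endothelial cells enters the test through its level in macrophages, so counts over tested genes describe those genes and not their whole list. With each cell thinned to 2000 UMIs 2209 genes were tested, and the number higher fell to 7 among chemokines, 6 among Fc and phagocytic receptors, 2 in class II and 0 for complement and the perivascular list. Levels below are CPM of the class sum in mice 1, 2 and 3, without TMM scaling. Log2 fold changes are macrophage over endothelial from the fit, with TMM scaling, which raises them relative to the CPM. Small fold changes can therefore differ in direction from the CPM. Called means an adjusted p (Benjamini-Hochberg over all tested genes) under 0.05.

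Genes of macrophages and other myeloid cells that the rule did not use stood far above the endothelial level. Trem2 (ENSMUSG00000023992, chromosome 17, 48346401 to 48354147), a lipid-sensing receptor of myeloid cells, was at 902, 699.9 and 445 CPM in macrophages and had 0 UMIs in all 3 endothelial sums, so that it was at least 438-fold higher (3 UMIs over the group taken as the floor; edgeR adjusted p = 8.11e-31). Cx3cr1 (ENSMUSG00000052336, chromosome 9, 119901616 to 120069879), the receptor for fractalkine, was at 554, 396 and 289 CPM against 0, at least 271-fold higher. For both genes the macrophage sum of every mouse lay above every endothelial sum, and mouse 1 was the highest. Lyz2 (ENSMUSG00000069516, chromosome 10, 117277331 to 117282321), the lysozyme of myeloid cells, was at 6058, 3424 and 3959 CPM against 3.53, 0 and 6.8 (log2 10.52, SE 0.53, edgeR adjusted p = 7.07e-29). Ctss, cathepsin S, which trims the invariant chain from class II molecules, was at 3367, 3388 and 3188 CPM against 0, 0 and 5.1, nearly the same in each mouse. In dendritic-like cells, described below, Trem2 and Cx3cr1 each had a UMI in 3.1%, against 78.3% and 74.1% of members. Lyz2 had a UMI in 75.0% of dendritic-like cells and 94.7% of members, so its detection was not particular to macrophages.

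Of 20 genes in a list of pan-macrophage genes, all were detected in the members, 18 passed the filter on low counts and 17 of these were higher, with a median log2 fold change of 9.61, or 8.77 with genes absent from endothelial sums set at their bound. Mertk, a receptor for dying cells, did not pass, at 30.8, 24.4 and 19 CPM against 17.6, 13.1 and 20.4 (log2 0.87, adjusted p = 0.08 in edgeR). Spi1, which encodes PU.1, had 532 UMIs in macrophages and 1 in endothelial cells, a ratio of CPM of 775-fold (95% counting interval 138 to 30651). The microglial genes in the list were uneven. Tmem119 was at 133, 146 and 138 CPM against 0 and Siglech at 71.8, 84.1 and 40.9 against 0, while P2ry12, at 87.1, 27.1 and 12.4 CPM, and Sall1, with a UMI in 1 cell, were too low to test.

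The largest differences toward macrophages, by log2 fold change among called genes of at least 50 CPM, fell on 20 genes. Besides Trem2, Cx3cr1, Lyz2 and Ctss they were Bcl2a1b, Ccl4, Ms4a7, Fcgr3, Mmp12, Pla2g7, Ncf4, Ccl3, H2-M2, Lilr4b, Ccl12, Rgs1, Cd72, Tnf, Scimp and Aif1. Bcl2a1b (ENSMUSG00000089929, chromosome 9, 89199209 to 89207827), a survival factor of the BCL2 family, was at 410.03, 594 and 597 CPM against 0, at least 449.9-fold higher, although near-identical copies of this gene make the split of reads among them uncertain. Mmp12, the macrophage elastase, was at 395, 239 and 413 CPM against 0 (at least 291-fold), and its UMIs came from 59 of the 189 cells. Pla2g7, which breaks down platelet-activating factor, was at 210.1, 366 and 269.9 CPM (at least 223-fold), and Ncf4, a subunit of the phagocyte NADPH oxidase, at 123, 233 and 367 CPM (at least 241-fold). Ms4a7, a membrane protein of tissue macrophages, had 1965 UMIs against 1 and stood at 1312, 1253 and 1185 CPM, within a narrow range over the mice. Aif1, which encodes the calcium-binding protein IBA1, was at 1046, 925 and 721 CPM. These 20 genes, and the 5 with the largest differences in the other direction, were called under every alternative setting in which they were tested.

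In the other direction the 5 largest differences were genes with 0 UMIs in all 189 macrophages. Hspg2, the basement membrane proteoglycan perlecan, was at 416, 379 and 457 CPM in endothelial cells, at least 229.9-fold lower in macrophages. The others, Btnl9, Ltbp4, Fbln2 and Prex2, were at least 186-fold, 152-fold, 115-fold and 115-fold lower. Fabp4, a fatty acid carrier of capillary endothelium, had 6 UMIs in macrophages against 2961.

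**Figure D2:**
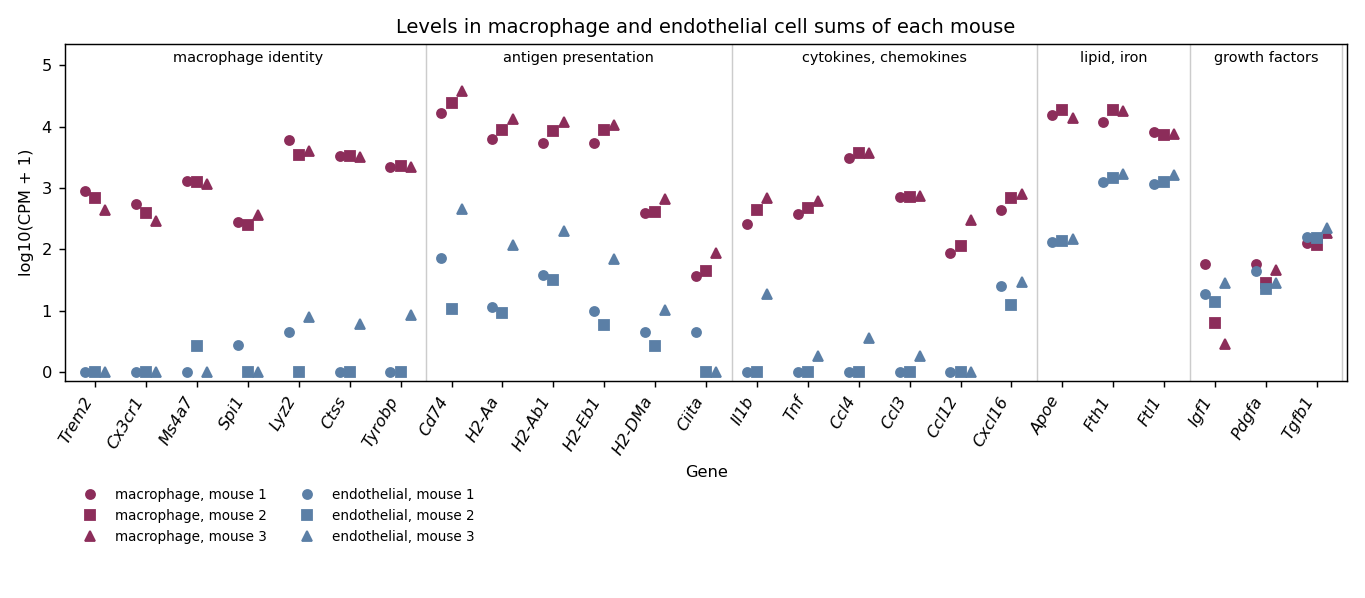
Level of 25 genes as log10(CPM + 1) in the summed macrophages (purple) and the summed endothelial cells (blue) of each mouse, with a marker shape per mouse and no error bars since every point is 1 sum. For the identity, antigen presentation and cytokine genes every macrophage sum lies above every endothelial sum, while for Igf1, Pdgfa and Tgfb1 the classes overlap.

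Genes of antigen presentation through MHC class II were among the highest transcripts of these cells by CPM. Cd74, the invariant chain that guides class II molecules to the endosome, was at 16909, 24160 and 38401 CPM in macrophages of mice 1, 2 and 3. H2-Aa (ENSMUSG00000036594, chromosome 17, 34282744 to 34287823), an alpha chain, was at 6361, 8925 and 13194 CPM, and H2-Ab1, its beta chain, at 5525, 8469 and 12190.2 CPM. H2-Eb1 (ENSMUSG00000060586, chromosome 17, 34305867 to 34316674), a beta chain of the second class II molecule, was at 5464, 8798 and 10574 CPM. The listed gene H2-Ea-ps was not among the deposited genes, and these counts do not show whether the second molecule was formed. In each of the 4 genes mouse 1 was lowest and mouse 3 highest, and H2-Aa was detected in 187 of 189 cells. Together class II genes and Cd74 took 3.43%, 5.04% and 7.44% of macrophage UMIs (5.30% ± 2.02, SD, n = 3), against 0.0127%, 0.00541% and 0.0850% in endothelial cells and 0.000860%, 0.00533% and 0.00796% in insulin-rich cells. The 4 genes served in the gate for dendritic-like cells and were not tested.

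The 64 dendritic-like cells (2, 9 and 53), which carry class II genes and a dendritic gene with at most 1 C1q gene, held 6.56%, 5.14% and 7.41% class II UMIs, a range that the macrophages overlapped. With 2 and 9 cells in mice 1 and 2 no test was made. In mouse 3, where most members with little C1q were found, Cd74 was at 40053 CPM in the members that had more C1q and at 29729 CPM in those with little. Class II levels can also move with the H2 alleles, because the NOD haplotype differs from the reference genome, and that effect on the counts was not tested.

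The 4 class II genes that could be tested were all higher in macrophages. H2-DMa, a chain of the molecule that loads peptides onto class II, was at 399.8, 407 and 663 against 3.53, 1.64 and 9.35 CPM (log2 7.03, SE 0.36, edgeR adjusted p = 2.49e-29). H2-DMb1 had a log2 fold change of 6.38 and H2-DMb2 of 5.61, and reads of these near-identical beta chain copies may be split between them. Ciita, the transactivator of class II genes, was at 35.9, 43.4 and 87.4 CPM, with 115 UMIs against 2, a ratio of 83.7-fold (95% counting interval 22.7 to 699.6). H2-Oa and H2-Ob, the chains of the molecule that restrains H2-DM, reached at most 13.3 CPM and did not enter the test.

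MHC class I, which all nucleated cells carry, mostly missed the threshold. Of 14 tested class I and peptide-supply genes, 1 was higher, 2 were lower and 11 missed the threshold, with a median log2 fold change of -0.18. B2m, the shared light chain, was at 2609, 2452 and 2168 CPM against 2901, 2509.6 and 3224 (log2 0.24, adjusted p = 0.566 in edgeR), and the classes overlapped. Its CPM was lower in macrophages of each mouse, and the fold change was positive only with TMM scaling. H2-Q7 was higher (log2 1.12), a call that was lost without mouse 2 (0.70) and with DESeq2 (1.17). The peptide transporter subunit Tap2 (log2 -1.21) and H2-Q4 (-1.14) were lower. Scaled by library totals, 8 of the 14 were lower. H2-Q genes are close copies of each other and their counts are uncertain.

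Inflammatory cytokines were present without a stimulus named in the labels. Il1b (ENSMUSG00000027398, chromosome 2, 129364570 to 129371139), the gene for interleukin 1 beta, was at 261, 434 and 678 CPM in macrophages against 0, 0 and 17.9 (log2 6.61, SE 0.45, edgeR adjusted p = 1.92e-10). Tnf (ENSMUSG00000024401, chromosome 17, 35199381 to 35202007), the tumour necrosis factor gene, was at 374, 480.2 and 626 CPM, with 909 UMIs against 1, a ratio of 1323-fold (95% counting interval 237 to 52332). Both were lowest in mouse 1 and highest in mouse 3, and no macrophage sum overlapped an endothelial one. Per cell, Il1b was detected in 136 of 189 members and Tnf in 138, against 1.98% and 0.214% of insulin-rich cells. The transcripts were not particular to macrophages, since dendritic-like cells held Il1b in 64.1% and Tnf in 59.4%, against 72.0% and 73.0% of members. Of 13 listed genes 5 passed the filter on low counts, and these, Il1b, Tnf, Il1a, Il18 and Tnfsf9, were higher with a median log2 fold change of 6.96 (6.61 with bounds). Without that filter 10 were higher and 1 lower, and with thinned cells 2 were higher. Il6 had a UMI in 2 cells and Il12b in 6, and Nos2, the inducible nitric oxide synthase, had 0 UMIs in 189 cells, which allows a share of up to 1.59% of cells with a UMI.

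Chemokines were the other large group of secreted signals. Ccl4 (ENSMUSG00000018930, chromosome 11, 83662584 to 83664683) and Ccl3, which encode inflammatory chemokines, were at 3111, 3741 and 3714 and at 718, 722 and 743 CPM in mice 1, 2 and 3, with little spread. Their UMIs in macrophages and endothelial cells were 5894 against 3 and 1188 against 1, ratios of 2861-fold (95% counting interval 978 to 13875) and 1729.7-fold (95% counting interval 309.9 to 68376). Cxcl2, which draws neutrophils, was at 1112, 2821 and 3428 CPM against 5.29, 0 and 11.9 (log2 9.14), and Cxcl16, a membrane-bound chemokine for CXCR6, at 436, 684 and 795 against 24.7, 11.5 and 28.1 (log2 5.38). Ccl12, a ligand of CCR2, was at 87.1, 114 and 304 CPM against 0, highest in mouse 3. Of 14 tested chemokine genes and receptors 13 were higher and Cxcr4 did not pass (log2 -0.14), with a median of 7.98 (7.53 with bounds).

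Transcripts that respond to tissue dissociation were also higher for the most part. Of 20 such genes, 13 were higher in macrophages, 4 were lower and 3 missed the threshold, with a median log2 fold change of 1.19. Atf3, a stress-response factor, was at 1573, 2127 and 1825 against 116, 225 and 272 CPM (log2 3.72), and Fos, an immediate-early factor, at 2148, 3516 and 4130.2 against 1155, 1806 and 2988 (log2 1.26, a call lost without mouse 2 at 1.16). Klf2 and Klf4, factors active in endothelium, were lower (log2 -1.0 and -1.72), and 2 of the 4 lower calls were lost without mouse 2, that of Klf2 among them (-0.94). The part of dissociation in the cytokine and chemokine levels was not tested.

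Sensors of microbial and danger signals formed a further group. Of 10 tested pattern recognition genes 9 were higher and Tlr3 was lower (log2 -1.40), with a median of 3.0. The call of Tlr3 was lost with DESeq2 (-2.04), without mouse 1 (-0.87) and without mouse 2 (-1.05), and with thinned cells 3 genes were higher and 0 lower. Cd14, the co-receptor for lipopolysaccharide, was at 287, 475 and 625 against 44.1, 26.2 and 58.7 CPM (log2 3.92), and Tlr2, a receptor for bacterial lipoproteins, at 103, 146 and 152 against 7.06, 11.5 and 12.8 (log2 4.16). Nlrp3, the inflammasome sensor, was at 51.3, 86.8 and 91.2 CPM, with 138 UMIs against 1.

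Of 24 tested interferon-stimulated genes 13 were higher, 6 were lower and 5 did not pass, with a median log2 fold change of 0.73. Beside 22.1% higher and 25.8% lower among all tested genes, the lower calls lay near the general share. Cxcl10, an interferon-induced chemokine, was at 866, 1099 and 1351 CPM against 0, 31.2 and 5.95 (log2 7.25) and Ifi27l2a at 1814, 1351 and 692 against 98.8, 16.4 and 12.8 (log2 5.74). Isg15, a ubiquitin-like modifier, was at 656, 339 and 637 against 228, 218 and 247 CPM (log2 1.68). Ly6e (-2.42) and Ifi44 (-2.44) were among the lower genes. The counts were 8 higher and 2 lower with DESeq2 and 4 higher and 3 lower with thinned cells, and the number lower was 3 without mouse 2 and 3 without mouse 3.

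**Figure D3:**
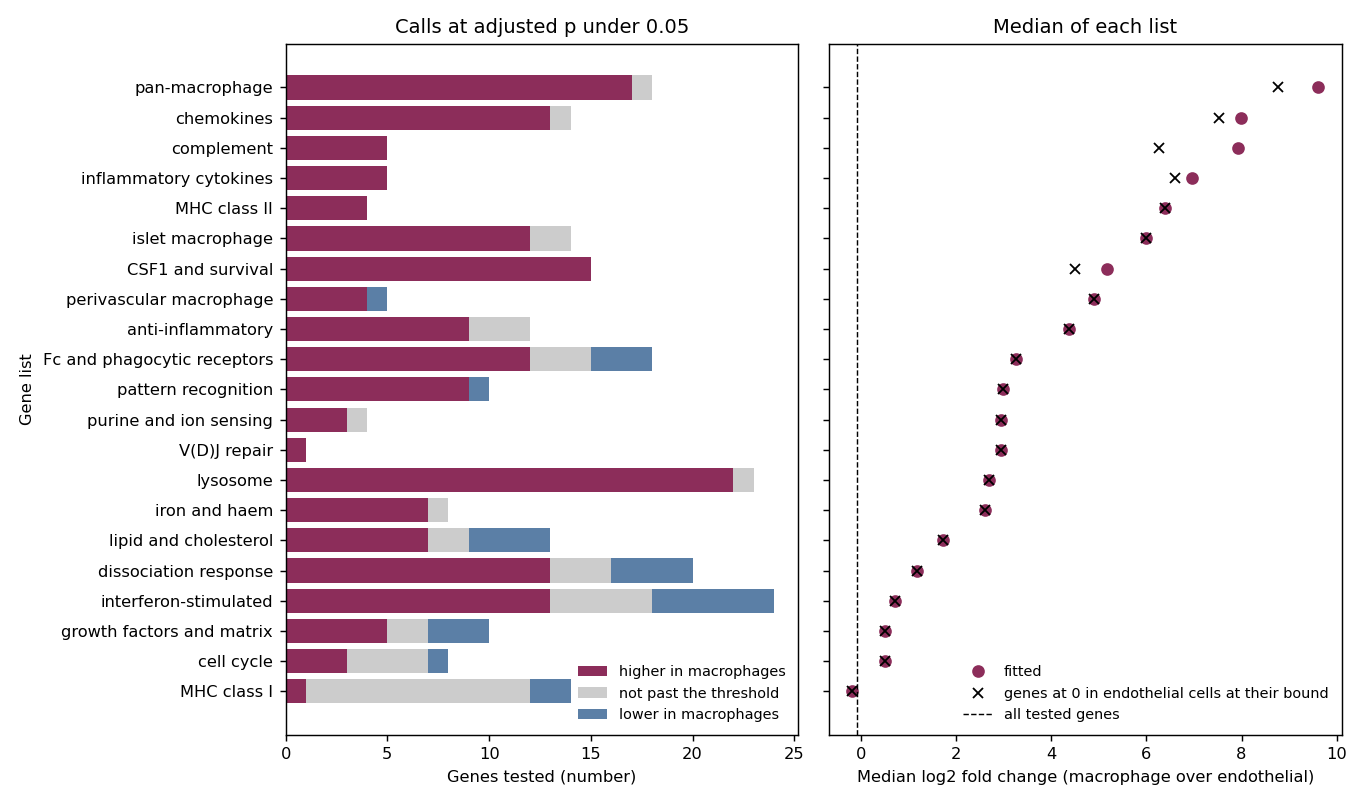
Left, the number of tested genes in each of 21 gene lists that were higher in macrophages, lower, or not past an adjusted p of 0.05 in edgeR's quasi-likelihood test against endothelial cells. Right, the median log2 fold change of each list as fitted (circles) and with genes absent from endothelial cells at their bound (crosses), with all tested genes at -0.07 as a dashed line. Macrophage, chemokine, complement receptor and class II lists lie to the right, and MHC class I lies beside the line.

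Genes for the breakdown of engulfed material were higher as a group. Of 23 tested lysosome genes 22 were higher and Ctsl did not pass (log2 -0.46), with a median of 2.70. Cathepsin genes took 1.03% ± 0.277 of macrophage UMIs (SD, n = 3) against 0.119% ± 0.0175 in endothelial cells. Ctsb, cathepsin B, was at 2891, 1131 and 1385 against 189, 180.4 and 219 CPM (log2 3.56, edgeR adjusted p = 1.61e-16), with mouse 1 the highest, and Psap, the saposin precursor, at 2296, 1367 and 2433 against 342, 302 and 459.95 (log2 2.93). Npc2, a cholesterol carrier of the lysosome, was at 1579, 1346 and 1311 against 215, 217 and 276 CPM (log2 3.07).

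Apoe (ENSMUSG00000002985, chromosome 7, 19696109 to 19699188) was among the highest transcripts by CPM, at 15299, 19079 and 13963 in macrophages against 131, 135 and 145 in endothelial cells (log2 7.35, SE 0.46, edgeR adjusted p = 1.33e-24). It was detected in 173 of 189 members, and in 20.8% of insulin-rich cells. In the lipid list 7 of 13 tested genes were higher, 4 were lower and 2 did not pass (median 1.72). Among all tested genes 22.1% were higher and 25.8% lower. Abca1, the cholesterol exporter, was higher (log2 2.14), as was Plin2, a lipid droplet coat protein (2.87). Pltp (-0.68), Abcg1 (-0.70), Nr1h2 and Fabp4 were lower. This count was 1 without mouse 3, with DESeq2, with thinned cells or without the mouse block, and 2 without mouse 2. Without the block the calls of Pltp (-0.64), Abcg1 (-0.68) and Nr1h2 (-0.82) were lost.

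Ferritin transcripts took 2.42% ± 0.329 of macrophage UMIs (SD, n = 3) against 0.282% ± 0.0463 in endothelial cells. Fth1, the heavy chain of ferritin, was at 12168, 18829 and 18263 against 1263, 1449.99 and 1728 CPM (log2 3.95), and Ftl1, the light chain, at 8190.3, 7311 and 7724 against 1173, 1247 and 1608 (log2 3.03). Hmox1, which breaks down haem, was at 133, 86.8 and 143 against 5.29, 11.5 and 9.35 CPM (log2 4.27). Of 8 tested iron and haem genes 7 were higher and 1 missed the threshold, with a median of 2.60. The iron exporter gene Slc40a1 was too low to test, with a UMI in 4 cells.

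Receptors for antibody and complement were called higher in each tested case named here. Fcgr3, a low-affinity IgG receptor, was at 349, 315 and 417 CPM against 0 (at least 302-fold), Fcgr1, the high-affinity receptor, at 779, 502 and 610.1 against 0, 3.28 and 0.85, and their shared signalling chain Fcer1g at 1758, 1769 and 1577 against 1.76, 4.92 and 7.65 (log2 8.77). C5ar1, the receptor for complement fragment C5a, was at 87.1, 84.1 and 105 CPM against 0 (at least 76.7-fold). Of 18 tested Fc and phagocytic receptor genes 12 were higher, 3 were lower and 3 missed the threshold, with a median of 3.26. The 3 lower genes, Mfge8 (-4.46), Gas6 (-2.66) and Pros1 (-1.71), encode secreted bridges between dying cells and phagocytes rather than receptors. The complement receptor genes that entered the test, C3ar1, C5ar1, Itgam and Itgb2, were higher.

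Survival signalling and secreted growth factors were read as separate lists. Of 17 genes in a list for colony-stimulating factor signalling and survival 15 were tested and higher (median 5.17, or 4.5 with bounds), such as Csf2ra, a receptor chain for GM-CSF, at 144, 219.7 and 269.9 against 3.53, 1.64 and 1.7 CPM (log2 7.11). The ligands that signal to Csf1r were scarce in the macrophages themselves, with Csf1 at 5.13, 2.71 and 3.8 CPM and Il34 at 0. Of 10 tested growth factor and matrix genes 5 were higher, 3 lower and 2 did not pass (median 0.52), and 3 were higher with library totals, DESeq2 or thinned cells. The shares over all tested genes were 22.1% higher and 25.8% lower. Pdgfa, a growth factor for mesenchymal cells, was higher (log2 1.05), a call lost with library totals (0.54), with DESeq2 (1.02) and without mouse 3 (0.78). Igf1, a growth factor made by many tissue macrophages, did not pass (log2 -0.45, edgeR adjusted p = 0.709), and its level of 56.4, 5.43 and 1.9 CPM was mostly that of mouse 1. Hbegf (-3.76) and Thbs1 (-6.83) were lower, as was Pdgfb (-0.94), whose call was lost without mouse 3 (-0.87), with DESeq2 (-0.98) and with thinned cells (-0.73).

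Genes known from earlier work on islet macrophages were described as a list. Of 14 tested, 12 were higher and Fabp5 and Ctsl did not pass, with a median log2 fold change of 6.0. The call of Cd9 was lost with library totals (0.26), with DESeq2 (0.79), with thinned cells (0.45) and without mouse 1 (0.45). It was also lost without 1 barcode of mouse 1 rich in Vip, described below (0.31). That of Lpl was lost without the mouse block (1.67). Cd72, an inhibitory receptor bound by semaphorin 4D, was at 267, 651 and 599.7 CPM, with 923 UMIs against 1. Itgax, the integrin CD11c, was at 66.6, 67.8 and 131 CPM. It was detected in 83 members (43.9%), against 0.107% of insulin-rich cells and 56.3% of dendritic-like cells. Axl, a receptor for dying cells, was at 159, 125 and 177 against 15.9, 1.64 and 1.7 CPM (log2 5.39). Lgals3, galectin 3, was at 2127, 174 and 658 CPM, but the high sum of mouse 1 rested on few cells. In members with none of the 5 perivascular genes described below it was at 101, 159 and 637 CPM. In members with at least 2 of them it was at 129, 181 and 369 CPM. Most of its UMIs in mouse 1 thus lay in the 4 members with 1 of these genes. Gpnmb, a gene of lipid-laden macrophages, had a UMI in 2 cells.

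**Figure D4:**
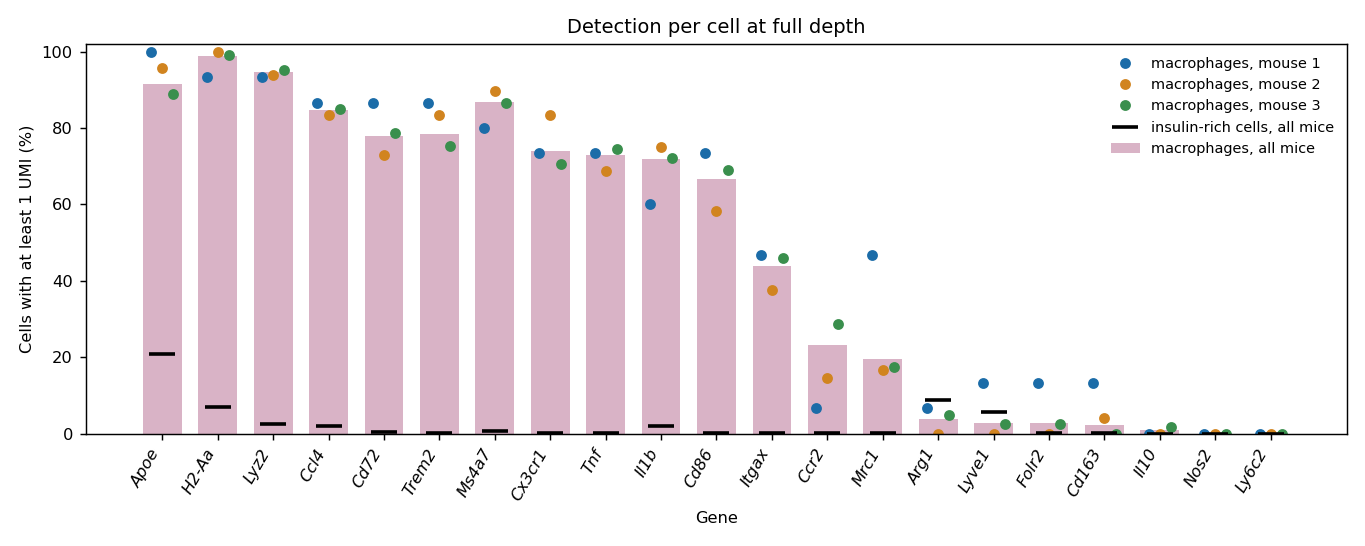
Percentage of cells with at least 1 UMI of each gene at full depth, as bars for all 189 macrophages, points for each mouse and a black dash for the 1871 insulin-rich cells, whose level reflects free RNA and their own depth. Most members held Apoe, H2-Aa, Lyz2, Ccl4, Cd72 and Trem2, while Nos2 and Ly6c2 stood at 0. For Lyve1 and Arg1 the pooled share of members was below that of insulin-rich cells, but not in every mouse.

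Few members carried the genes Mrc1, Cd163, Lyve1, Folr2 and F13a1, which macrophages along vessels express in many tissues. Of 18 genes in a perivascular list 5 were tested, of which Mrc1, Pf4, Stab1 and Mgl2 were higher than in endothelial cells and Gas6 was lower (median 4.90). Without mouse 2 the number higher was 9, and the call of Mrc1 was lost without the mouse block and that of Stab1 with library totals (0.66). At full depth Mrc1, the mannose receptor, was detected in 37 members, F13a1 in 8, Lyve1 in 5, Folr2 in 5 and Cd163 in 4. At full depth the share of cells with Lyve1, 2.65%, lay below the 5.72% of insulin-rich cells, which were deeper in mouse 3, although in mouse 1 it was 13.3% against 4.94%. After thinning each cell to 2000 UMIs, which left 165 of the 189 members (13, 44 and 108), the shares with Lyve1 were 2.42% of members and 0.272% of insulin-rich cells, so full-depth and thinned shares order the classes differently and no order is read from them. In the thinned cells 5 members held at least 2 of the 5 genes, with 2, 1 and 2 in the mice. At full depth there were 8 such members (3, 2 and 3), with median depths of 2388, 5523 and 12431 UMIs, and 150 members with none of the genes (8, 40 and 102). With fewer than 10 cells in each mouse this split was not tested, and its values are a description of 8 cells.

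The 8 cells together had higher levels of several other perivascular genes and lower levels of class II genes and Il1b. Over the summed cells, Lyz2 was at 13459 CPM in the 8 and 3093 CPM in the 150, and in every mouse the 8 were higher. Pf4, platelet factor 4, was at 1202 and 24.9 CPM, with UMIs in 7 of the 8. Cbr2, a carbonyl reductase, was at 322 and 0 CPM, with UMIs in 4 of the 8. Ccl8 of the same list was not higher, at 16.9 and 18.3 CPM. Retnla, a resistin-like protein of alternatively activated macrophages, was at 6315 and 0 CPM, but its UMIs came from 3 of the 8 cells. Cd74 was at 14051 CPM in the 8 and 33530 CPM in the 150, Il1b at 50.8 and 536, Cd72 at 135 and 631, and Cd9 at 0 and 230. For Cd74 the 8 were lower than the 150 of the same mouse in each mouse. Tnf was at 356 CPM in the 8 and 530 in the 150, but at 543 and 375 in mouse 2. C1qa, which chose the cells, was at 6281 and 6460 CPM.

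**Figure D5:**
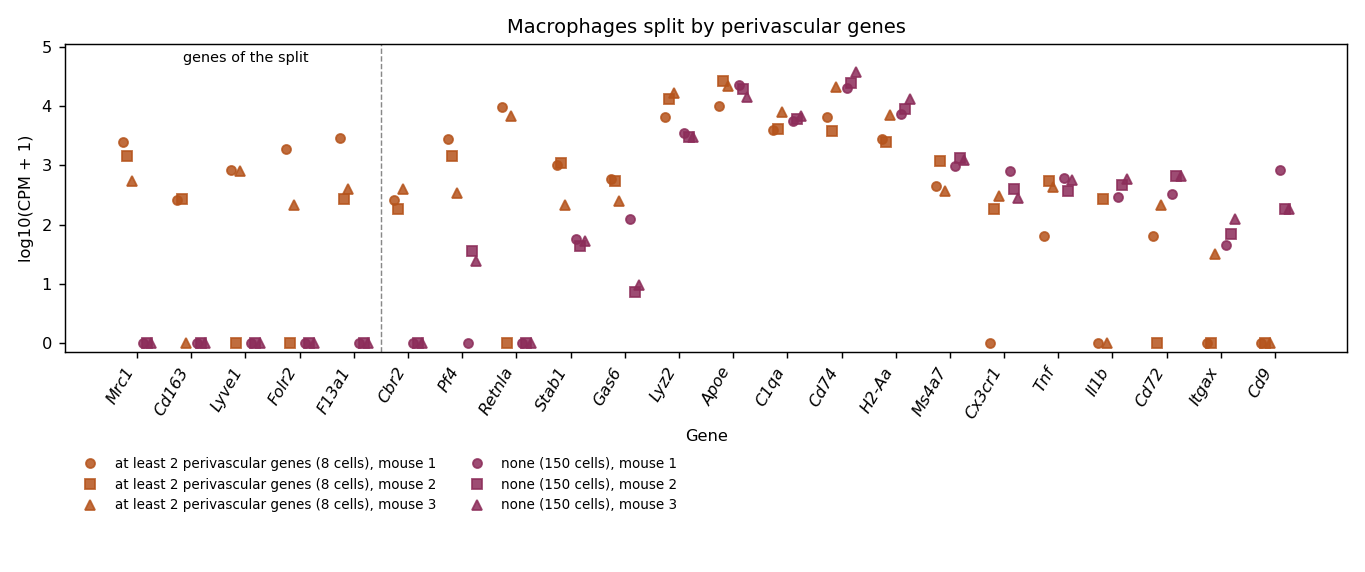
Level of 22 genes as log10(CPM + 1) in the 8 macrophages with at least 2 perivascular genes (orange) and the 150 with none (purple), with 1 sum and 1 marker shape per mouse. The 5 genes left of the dashed line made the split. Cbr2, Pf4, Stab1, Gas6 and Lyz2 are higher in the 8 cells in every mouse and Cd74, H2-Aa and Cd72 lower, on sums of 2 or 3 cells a mouse.

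Genes of monocytes were uneven. Ly6c2, a surface marker of inflammatory monocytes, had 0 UMIs in the 189 members. Ccr2, the receptor that draws monocytes from blood, was detected in 1, 7 and 36 members, 23.3% in all, against 0.214% of insulin-rich cells. Thinned to 2000 UMIs it remained in 0%, 2.27% and 12% of members in mice 1, 2 and 3. In mouse 3, Ccr2 was found in 8 of the 12 members with little C1q and in 28 of the other 114. Of 10 monocyte markers, at least 3 were detected in 2 members. The summed level of the list was 56.4, 81.4 and 219 CPM in macrophages and 379, 476 and 724 CPM in endothelial cells, where its members Ace and Nr4a1 were higher.

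Cell cycle genes were seldom detected together at matched depth. At least 3 of 18 cell cycle genes were found in 54 members at full depth, and in 0, 1 and 4 of the thinned cells of mice 1, 2 and 3, which is 3.03% of 165 (exact interval 0.991% to 6.93%). Thinned endothelial cells gave 3.29% and insulin-rich cells 0.435%. Of 8 tested cell cycle genes 3 were higher in macrophages, 1 (Stmn1) was lower and 4 did not pass, beside 22.1% higher and 25.8% lower among all tested genes. The number higher was 1 without mouse 3 and with thinned cells, and the lower call was lost without the highest Scrublet scores, without the mouse block, without mouse 2 and with DESeq2. Mki67, a marker of dividing cells, was at 15.4, 38 and 58.9 CPM against 3.53, 0 and 21.3 (log2 2.54) and was detected in 29 members.

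The macrophages were read against the lymphocyte markers of the same libraries, since NOD-SCID mice lack mature T and B cells. Among kept cells, 3, 8 and 5 carried at least 3 of 12 T cell markers in mice 1, 2 and 3, and 1 of these was a macrophage. All 3 cells of mouse 1 and all 8 of mouse 2 have a barcode that libraries 1 and 2 share, so outside the shared barcodes the counts were 0, 0 and 5. These T marker cells had median depths of 1034, 1292 and 14527 UMIs in mice 1, 2 and 3. At least 3 of 10 B cell markers were carried by 0, 3 and 0 kept cells, and all 3 have a shared barcode. Of these 3 cells, 2 also count among the T marker cells, and all 3 held 0 UMIs of Cd79a and Ms4a1. Cells with at least 3 of 15 markers of natural killer and innate lymphoid cells numbered 0, 1 and 19. Of these, 3 in mouse 3 were macrophages. No insulin-rich or endothelial cell reached 3 markers of any of these lists. Whether the marker cells of mice 1 and 2 belong to these mice was not tested.

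Macrophages themselves held 0 UMIs of 4 of the 12 T cell markers, among them Cd3e, Trac and Cd8a. They held 0 UMIs of 6 of the 10 B cell markers, among them Cd79a, Ms4a1, Pax5 and Igkc. Other markers of these lists were detected, such as Cd4 with 21 UMIs in 13 members, Trbc2 with 11 in 5 and Cd79b with 16 in 13. Prkdc, the gene of the SCID mutation, was at 0, 2.71 and 9.5 CPM, and counts per gene do not show the mutation. Rag1 and Rag2, which cut antigen receptor genes, were at 0. In contrast Ighm, the constant region of immunoglobulin mu, was at 138, 184 and 173 CPM in macrophages and had a UMI in 106 of 189 cells. It had 277 UMIs against 1 in endothelial cells, a ratio of 403-fold (95% counting interval 71.8 to 15986) (edgeR adjusted p = 2.16e-28). Il7r, the receptor for interleukin 7, was at 103, 62.4 and 94.1 CPM against 0, with UMIs in 66 members (at least 68.9-fold). For both genes all 3 mice were above all endothelial sums. Ighm and Il7r were singled out after their values were seen.

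The mice differed from each other in a minority of genes. Of 1082 genes with at least 100 CPM on average, the ratio of the highest to the lowest mouse had a median of 1.53 and was at least 2 in 220, with the highest value in mouse 1 for 111, in mouse 2 for 37 and in mouse 3 for 72. The 10 genes with the largest ratios were Vip, Tac1, Retnla, Npy, Fabp5, Rsad2, Ahnak, Hspb1, Anxa1 and S100a6. Several rested on single cells. The neuropeptide gene Vip had 780 UMIs in macrophages of mouse 1 and 0 in the others, and 778 of these lay in 1 barcode with 18904 UMIs, which also held 102 of 103 UMIs of the neuropeptide gene Tac1, 84 of Npy and 95 UMIs of C1qa. Retnla had 150 of its 203 UMIs in 1 cell of mouse 1 and 215 of 223 in 1 cell of mouse 3, and Hspb1, a small heat shock protein, 143 of 151 in 1 cell of mouse 2. Fabp5, a fatty acid carrier, was at 1312, 32.6 and 93.1 CPM, with 156 of 256 UMIs of mouse 1 in 1 cell. Anxa1, an anti-inflammatory annexin, was at 599.7, 24.4 and 191 CPM and S100a6 at 236, 10.9 and 159, lowest in mouse 2 in both. Without the Vip barcode 1458 genes were higher and 1781 lower in the comparison with endothelial cells.

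Hormone and enzyme transcripts varied between libraries in both classes. Insulin took 2.80%, 4.00% and 1.37% of macrophage UMIs in mice 1, 2 and 3 and 4.55%, 3.58% and 1.43% of endothelial UMIs. Acinar enzyme genes took 0.571%, 2.68% and 0.528% in macrophages and 1.03%, 2.79% and 0.356% in endothelial cells. At least 3 acinar markers were detected in all 189 members and in 7442 of the 7490 kept cells. Of 11 tested acinar genes 10 did not pass and Clps was higher (log2 0.92), a call lost with library totals (0.42), DESeq2 (0.94), without mouse 3 (0.56) and without the mouse block (0.73). Of 4 tested beta cell genes besides the hormones, G6pc2 and Slc30a8 were higher, and Iapp and Mafa did not pass. The calls of G6pc2 and Slc30a8 were lost with library totals, with DESeq2, without the mouse block, without mouse 2 and without mouse 3, and that of G6pc2 also without cells of a shared barcode. Macrophages take up secretory granules, and these counts do not separate RNA that was taken up from RNA that was free in the droplet.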

How the data were processed

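The authors deposited counts, as whole numbers of UMIs per gene and barcode, for 31053 genes in 3 libraries. Per the submitters' processing notes they come from Cell Ranger 2.2 with mm10, and the headers of the matrices give 3.1.0 as the software version. How barcodes were selected is not given in the sources used here. Of the gene IDs 31011 were matched to GENCODE M21 for positions.

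Barcodes were kept from 500 detected genes up and with mitochondrial UMIs no higher than 15%, and the members were found by the given rule. The members, gene lists and classes were chosen with earlier results of these data known. UMIs were summed per mouse and class and tested with edgeR 4.0.16 under R 4.3.3 (genes filtered by filterByExpr, scaled by TMM, tested by glmQLFTest after a robust glmQLFit; calls at a Benjamini-Hochberg adjusted p under 0.05), with the mouse as a block. The mice are separate animals, so macrophages and endothelial cells of a number share an animal. Their deviations correlated at 0.133, 0.269 and 0.413 over 2905 genes, and at -0.279 to 0.059 between mice. P-values cover the spread over 3 mice and not the choice of cells from the same counts. The classes dendritic-like and perivascular had fewer than 10 cells in a mouse and were not tested.

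On simulated counts of this comparison (6658 genes), 5 of 6460 unchanged genes were called, 30 of 89 with a log2 change of 1 and 100 of 109 with 2. The simulation gave all genes 1 spread, had no mouse effect and changed few genes. Its rates do not carry over to the data, where 47.9% of genes were called. Doublets were kept. Scrublet in scanpy 1.11.5, at 0.8% per 1000 barcodes, would remove 10 members, and its automatic threshold marked 31 of 7490 cells. Thinning to 2000 UMIs drew without replacement. Gene symbols are as deposited, and 5 of the 491 listed genes were not among them.

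Named genes are the 20 largest log2 fold changes toward macrophages and 5 toward endothelial cells (called, same direction in all 3 mice, at least 50 CPM in the higher class, no numbered gene models), up to 6 members per list by CPM, all class II genes, the 20 highest by CPM without mitochondrial and ribosomal protein genes, and the 10 with the largest ratio between mice. Results of a few genes are not reported here. Other genes that are named were chosen after their values were seen. DESeq2 1.42.0 served as an alternative test, and matrices were read with scipy 1.17.1 in Python 3.11.15.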

Additional observations from a re-analysis of the deposited data

Results flagged for a closer look

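Igkc, the constant region of immunoglobulin kappa, is a transcript of B cells and was found outside the cells described above. Barcodes that the gene and mitochondrial filters removed held 719 Igkc UMIs in mouse 1, 388 in mouse 2 and 113 in mouse 3, above the limit of 3 UMIs that a count of 0 allows. Kept cells held 8, 407 and 54, and macrophages 0. Most of these UMIs sat in few barcodes, since 6, 4 and 2 barcodes had at least 10 Igkc UMIs, with 539 to 827, 891 to 1278 and 543 to 577 UMIs in all. Of these, 4 in mouse 1 and 4 in mouse 2 carry the same barcodes, with Igkc at 55 and 97, 234 and 382, 83 and 178, and 67 and 103 UMIs in libraries 1 and 2. The 2 barcodes of mouse 3 are not shared.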

How the results depend on the processing

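Counts of called genes depended on scaling, tool and depth, beside 1481 higher and 1727 lower (3208). Library totals gave 888 and 2858, DESeq2 920 and 1005 (1925), and thinning each cell to 2000 UMIs 492 and 584 (1076), with fewer genes tested (2209). The causes for library totals and DESeq2 were not tested. Leaving out each mouse in turn gave 2071 to 3513 calls, with 966 to 1815 higher and 1105 to 1698 lower, the fewest without mouse 3. Without the mouse as a replicate block, 1342 were higher and 1634 lower (2976). This block, which pairs classes of an animal, kept the call of 19 named or listed genes that was lost without it, among them Mrc1 (9.27), Npy (3.72), Nr4a1 (-1.11), Abcg1, Nr1h2 and Pltp. The mean share of macrophages ranged from 1.44% to 2.49% over the settings on cells and from 1.54% to 2.62% without 1 mouse. Reversal was checked for named or listed genes called in the main comparison, and no setting reversed one. Genes that were not called there were left out of this check. Of 3385 values of the 217 called genes 3203 kept their call and 182 lost it, and of 672 list counts 61 moved by over 1.5 times. The limits on 5% hormone UMIs (9 members in mouse 1) and on doublets by markers without acinar genes (9 in mouse 1) left too few cells for a test, and doublets by markers with acinar genes left 0 members. Alternatives on C1q level, shared barcodes, the Vip barcode and doublets without acinar genes were chosen after seeing the data. Mouse 1, with 15 members, limits every comparison between mice, and a count of 0 there allows up to 15.4 CPM.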

Other observations

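Receptors that restrain or tune macrophages were a further group with higher levels than in endothelial cells. Of 12 tested genes of the anti-inflammatory list 9 were higher and 3 missed the threshold, with a median log2 fold change of 4.37. Lair1, an inhibitory collagen receptor, was at 138, 171 and 132 CPM with 229 UMIs against 1, and Sirpa, which binds CD47, at 328, 128 and 137 against 5.29, 1.64 and 0 CPM (log2 7.03, edgeR adjusted p = 7.05e-27), highest in mouse 1. Tgfbr1, a receptor for transforming growth factor beta, was at 241, 260.4 and 172 against 19.4, 21.3 and 24.7 CPM (log2 3.75). Tgfb1, its ligand, did not pass, at 128, 119 and 186 against 157, 151 and 219 CPM. Il10 had a UMI in 2 of 189 members, while Arg1 was detected in 3.70% of members and 8.87% of insulin-rich cells. By mouse these shares were 6.67%, 0% and 4.76% of members and 6.17%, 11.6% and 4.36% of insulin-rich cells, so that the pooled order came from mouse 2.

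Receptors for extracellular nucleotides, which beta cells release with insulin, were also present. Of 11 listed genes 4 were tested, of which 3 were higher and Entpd1 did not pass, and with thinned cells 0 were higher. P2ry6, a receptor for uridine diphosphate, was at 123, 97.7 and 131 against 3.53, 6.56 and 7.65 CPM (log2 4.71), P2rx4, a channel opened by ATP, at 179, 141 and 96.9 against 14.1, 27.9 and 13.6 (log2 3.36), and P2rx7, another ATP-gated channel, at 51.3, 46.1 and 27.6 against 5.29, 11.5 and 9.35 (log2 2.55). In all 3 genes every macrophage sum was above every endothelial sum.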
